A study of Rattus norvegicus with 18 samples.

Results

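The livers of 3 young male Wistar rats fed fish oil were compared with those of 3 young male Wistar rats fed sunflower oil, across all 14217 genes tested. These 6 arrays, 1 for each animal, were the samples titled as young liver with either oil, of 18 in the series. Each fish oil liver was set against the sunflower oil liver with the same sample number, 1, 2 or 3. Both groups had a semi-synthetic diet with 4% fat by weight from weaning until they were killed at 6 months, and the oil was the only stated difference. The animals ate freely until 2 months of age and then received 25 g of diet a day each, housed 3 together. Cage mates are not named in the labels, so that an effect of cage and an effect of oil cannot be told apart, and the meaning of a sample number is not stated either. Livers with virgin olive oil at 6 months (3 arrays, same diet otherwise) and with fish or sunflower oil at 24 months (3 arrays each) served as points of comparison.

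Sunflower oil supplies mostly linoleic acid, an n-6 fatty acid, while fish oil supplies eicosapentaenoic and docosahexaenoic acid, which are n-3 fatty acids with longer chains. In the liver, long-chain n-3 fatty acids are known ligands of PPAR-alpha, the nuclear receptor that, paired with RXR, drives the genes of peroxisomal and mitochondrial fatty acid oxidation. They are also known to hold back the processing of SREBP-1, a transcription factor of the SREBP family. The SREBP factors together drive the genes of fatty acid synthesis, desaturation and cholesterol synthesis. The comparison asks how liver transcripts differ between the 2 kinds of polyunsaturated fat in young adult animals.

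Signals are the deposited linear array intensities. Differences are fish oil minus sunflower oil on the log2(signal + 16) scale, ± the standard error of the limma fit, so that a positive value is a higher level with fish oil. This scale understates differences of dim genes, and 48.1% of the signals on the 6 arrays lay under 16. A gene passed the test if its p-value, adjusted by Benjamini-Hochberg over all genes, was under 0.05. All adjusted p-values are limma's. With 3 animals a group, the number of animals limits the precision.

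The number 2 livers stood apart from the other young livers in all 3 oils. On the first principal component of the 9 young arrays, which held 30.8% of the variance, they lay at 34, 26.3 and 20.7 for olive, sunflower and fish oil, while the other 6 arrays ran from -21.1 to -3.9. Scd, the stearoyl-CoA desaturase that makes oleic acid, had signals of 11.8, 8054.7 and 1.4 in sunflower oil livers 1 to 3 and 2.9, 6102.0 and 7.6 in fish oil livers 1 to 3. The number 2 livers thus carried a strong Scd signal with either oil and the others next to none. Fasn, the fatty acid synthase, showed the same pattern, with 76.3, 1456.4 and 80.1 in sunflower oil livers 1 to 3 and 33.1, 1161.1 and 42.9 in fish oil livers 1 to 3. Most genes of fatty acid oxidation had their lowest signal in the number 2 liver of each oil, 18 of 28 peroxisomal and 20 of 24 mitochondrial ones (64.3% and 83.3%, beside 18.4% of all genes), but Cat and Nudt19 had their lowest in another liver. Comparing livers of the same number takes this difference out of the contrast, and values without the number 2 pair are given beside many of the main ones. Of 111 genes named, 27 had a difference that moved by over 1.5 times without that pair, 6 of them to a larger value and 2 to the other sign.

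Only 1 gene passed the test. No gene was called higher with fish oil (0.0% of the genes tested) and Rtn4ip1 was called lower (0.00703%). An unadjusted p under 0.05 was reached by 425 genes that were higher with fish oil (2.99%) and 545 that were lower (3.83%). In all 3 pairs, 2017 genes were higher (14.2%) and 2287 lower (16.1%). The fish oil arrays lay wholly above the sunflower oil arrays for 592 genes (4.16%) and wholly below them for 751 (5.28%). These shares are the background against which the gene groups below are read.

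**Figure D1:**
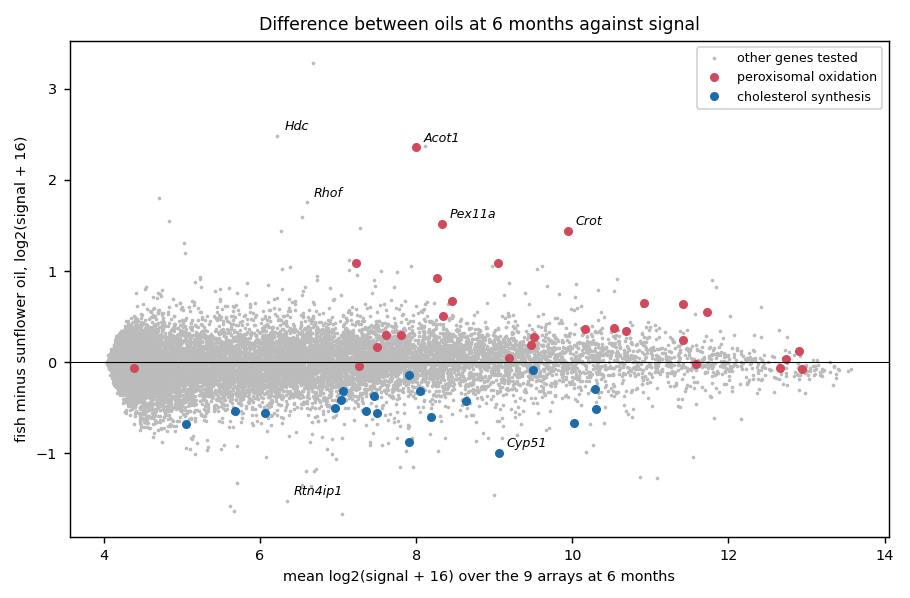
Difference between fish and sunflower oil at 6 months (vertical axis, log2(signal + 16)) against the mean level over the 9 young arrays (horizontal axis, log2(signal + 16)), 1 point for each of 14217 genes. Genes of the peroxisomal oxidation list (red) reach 2.36 for the cytosolic Acot1, while all cholesterol synthesis genes (blue) lie below 0.

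Rtn4ip1, a mitochondrial oxidoreductase that takes part in coenzyme Q synthesis, fell with fish oil. Its signals were 74.9, 87.2 and 133.0 in sunflower oil livers 1 to 3 and 14.5, 22.8 and 33.8 in fish oil livers 1 to 3. The groups did not overlap, and the highest fish oil liver had less than the lowest sunflower oil liver. The difference of -1.52 ± 0.14 is 2.87-fold on this scale (adjusted p = 0.0485), with -1.58, -1.41 and -1.58 in pairs 1 to 3. A second, dimmer probe set of the gene gave -0.36 ± 0.21 (adjusted p = 0.839 over all probe sets). The call held under only 3 of 22 alternative settings, and without the number 2 pair the difference was -1.58 with an adjusted p of 0.508. In a fit without the pairing, the adjusted p was 0.999.

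Of the 6 genes with the smallest p that were higher with fish oil, 4 belonged to the list of peroxisomal fatty acid oxidation. Among these 4 was Acot1, which the list holds although its enzyme is cytosolic. Pex11a, which drives the division of peroxisomes, had signals of 246.1, 117.1 and 320.2 in sunflower oil livers 1 to 3 and 733.8, 416.7 and 838.7 in fish oil livers 1 to 3. Every fish oil liver lay above every sunflower oil liver. The difference was 1.52 ± 0.16 (adjusted p = 0.0578), nearly the same in each pair at 1.52, 1.70 and 1.35, and a second probe set gave 1.26 ± 0.23 (adjusted p = 0.726 over all probe sets). Pex11a passed the test under 2 of the alternatives, a variance prior with a trend and a filter on dim genes.

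Acot1, a cytosolic acyl-CoA thioesterase, showed a difference of 2.36 ± 0.31, with signals of 644.7, 0.5 and 332.6 in sunflower oil livers 1 to 3 and 2727.6, 53.5 and 2688.1 in fish oil livers 1 to 3. The peroxisomal thioesterases Acot3, at 1.09 ± 0.14, and Acot4, at 1.08 ± 0.17, and the mitochondrial Acot2, at 0.76 ± 0.21, were also higher in all 3 pairs. Another probe set of Acot2, nearly as bright, gave only 0.24 ± 0.16, and a dimmer one 0.58 ± 0.28 (adjusted p = 0.86 and 0.81 over all probe sets). The 4 genes are similar in sequence and lie next to each other on chromosome 6, so that probes of one may take up transcripts of another. None of the 4 passed the test (adjusted p = 0.158, 0.158, 0.364 and 0.667).

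Hdc, the histidine decarboxylase that makes histamine, had the largest difference among the genes named here by their p. Its signals were 36.9, 18.1 and 33.4 in sunflower oil livers 1 to 3 and 553.9, 63.5 and 328.4 in fish oil livers 1 to 3, which is dim with sunflower oil in every liver and clear in fish oil livers 1 and 3. The difference was 2.48 ± 0.36 (adjusted p = 0.285), and 3.12 without the number 2 pair. Rhof, a small GTPase that shapes actin filopodia, differed by 1.76 ± 0.26 (adjusted p = 0.305).

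After Rtn4ip1, the genes with the smallest p that were lower with fish oil were mostly dim. Prlr, the prolactin receptor, had signals of 100.2, 91.5 and 114.8 in sunflower oil livers 1 to 3 and 44.2, 38.8 and 13.7 in fish oil livers 1 to 3. No fish oil liver reached the sunflower oil livers, and the difference was -1.35 ± 0.24 (adjusted p = 0.443), with -1.26 and -0.88 from its other probe sets. Epha3, an ephrin receptor, differed by -1.04 ± 0.19, and Kifc3, a kinesin motor, by -0.92 ± 0.16 (adjusted p = 0.443 and 0.438). Timm44, a part of the mitochondrial protein import motor, differed by -0.95 ± 0.16, but its other probe set by 0.00 ± 0.13. Carmil3, an actin regulator, differed by -0.83 ± 0.15 at signals under 18 on all 6 arrays (adjusted p = 0.498).

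**Figure D2:**
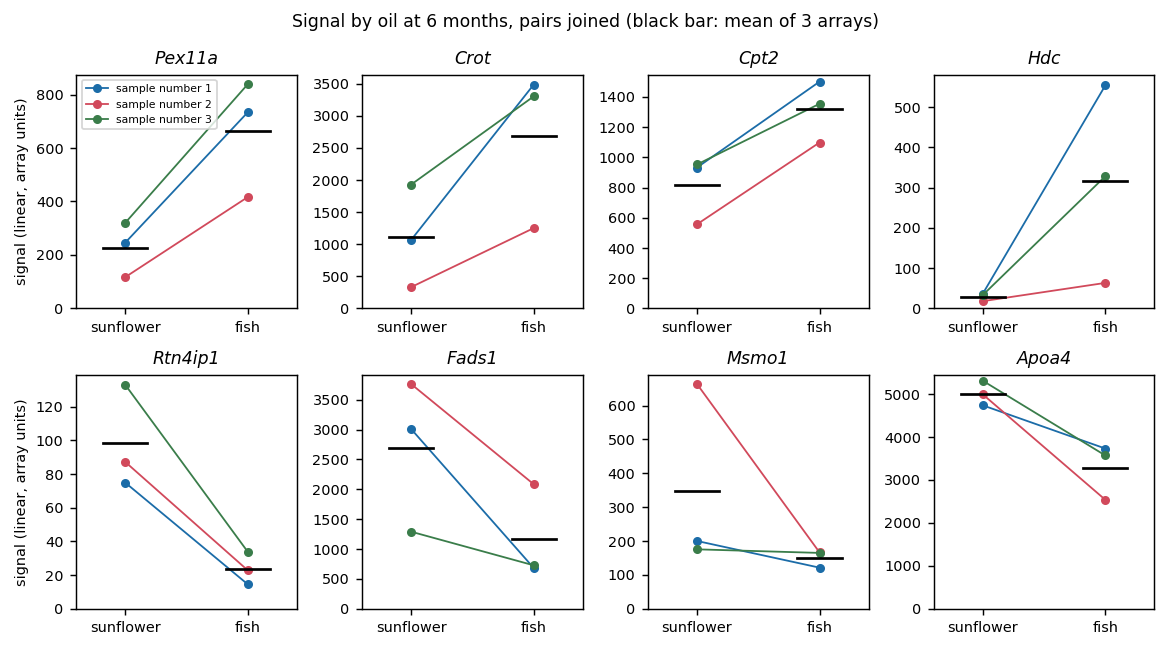
Signals (vertical axes, linear array units from 0) with sunflower and fish oil at 6 months for 8 genes, with lines joining livers of the same sample number and a black bar at the mean of 3 arrays. All 3 lines run upward for Pex11a, Crot, Cpt2 and Hdc and downward for Rtn4ip1, Fads1, Msmo1 and Apoa4.

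Genes of peroxisomal fatty acid oxidation were more often higher with fish oil than genes in general. Of 28 measured, 15 were higher in all 3 pairs (53.6%, against 14.2% of all genes) and 1 was lower. An unadjusted p under 0.05 was reached by 13 higher members (46.4%, against 2.99%) and by 0 lower ones, and 0 passed the adjusted test. The median difference was 0.32, beside -0.01 over all genes, with 0.38, 0.30 and 0.45 in the 3 pairs. Without the number 2 pair it was 0.36.

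The higher members covered several steps of the pathway. Crot, which moves shortened acyl chains from peroxisomes on to carnitine, had signals of 1066.9, 332.2 and 1929.4 in sunflower oil livers 1 to 3 and 3485.8, 1251.2 and 3302.5 in fish oil livers 1 to 3. Within each number the fish oil liver was higher, but fish oil liver 2 lay under sunflower oil liver 3. The difference was 1.44 ± 0.31 (adjusted p = 0.647). Crat, the carnitine acetyltransferase, differed by 0.92 ± 0.19.

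Hacl1, which removes a carbon from hydroxylated acyl-CoA in the alpha-oxidation of branched chains, had signals of 1291.9, 1352.6 and 1589.6 in sunflower oil livers 1 to 3 and 2150.4, 1877.8 and 2665.2 in fish oil livers 1 to 3. The groups did not overlap, with a difference of 0.65 ± 0.17 (adjusted p = 0.667). The coenzyme A diphosphatases of peroxisomes, Nudt7 and Nudt19, differed by 0.67 ± 0.18 and 0.50 ± 0.17. Enzymes that reshape double bonds, which polyunsaturated chains need before they can be oxidised, were also higher: 0.55 ± 0.17 for Ech1, 0.38 ± 0.14 for Decr2 and 0.34 ± 0.14 for Eci2. Without the number 2 pair Ech1 differed by 0.33.

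Ehhadh, the peroxisomal bifunctional enzyme and a classical PPAR-alpha target, had signals of 3976.2, 1082.7 and 2480.3 in sunflower oil livers 1 to 3 and 4811.3, 1677.9 and 4979.4 in fish oil livers 1 to 3. It was higher in each pair, by 0.27, 0.62 and 1.00, with a mean difference of 0.63 ± 0.23 (adjusted p = 0.721). Catalase and Scp2, which are abundant in peroxisomes, were near 0, at -0.07 ± 0.13 and -0.08 ± 0.14. The differences within the list thus ran from -0.08 to 2.36, the latter for the cytosolic Acot1.

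Mitochondrial fatty acid oxidation showed smaller differences of the same sign. Of 24 genes, 15 were higher in all 3 pairs (62.5%) and 8 were higher at an unadjusted p under 0.05 (33.3%), while 0 passed the test. The median was 0.24, and 0.23 without the number 2 pair. Cpt2, the inner membrane carnitine palmitoyltransferase, had signals of 932.7, 557.0 and 952.9 in sunflower oil livers 1 to 3 and 1501.1, 1098.3 and 1354.7 in fish oil livers 1 to 3, with no overlap between the groups and a difference of 0.71 ± 0.17 (adjusted p = 0.647). The carnitine-acylcarnitine carrier Slc25a20 differed by 0.40 ± 0.14 and the carnitine uptake transporter Slc22a5 by 0.58 ± 0.24.

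Eci1, an isomerase for unsaturated chains, differed by 0.82 ± 0.25. Its value rested partly on pair 2, at 0.54, 1.61 and 0.32 in pairs 1 to 3, and was 0.43 without that pair. The trifunctional protein subunits Hadha and Hadhb differed by 0.31 ± 0.15 and 0.32 ± 0.13, and the thiolase Acaa2 by 0.35 ± 0.14. Without the number 2 pair these 3 differed by 0.18, 0.30 and 0.23. Against this trend, Cpt1a, which controls the entry of fatty acids into mitochondria, was lower in all 3 pairs at -0.38 ± 0.18, and the uncoupling protein Ucp2 differed by -0.61 ± 0.22. Neither passed the test (adjusted p = 0.734 and 0.705), and without the number 2 pair Cpt1a differed by -0.19.

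**Figure D3:**
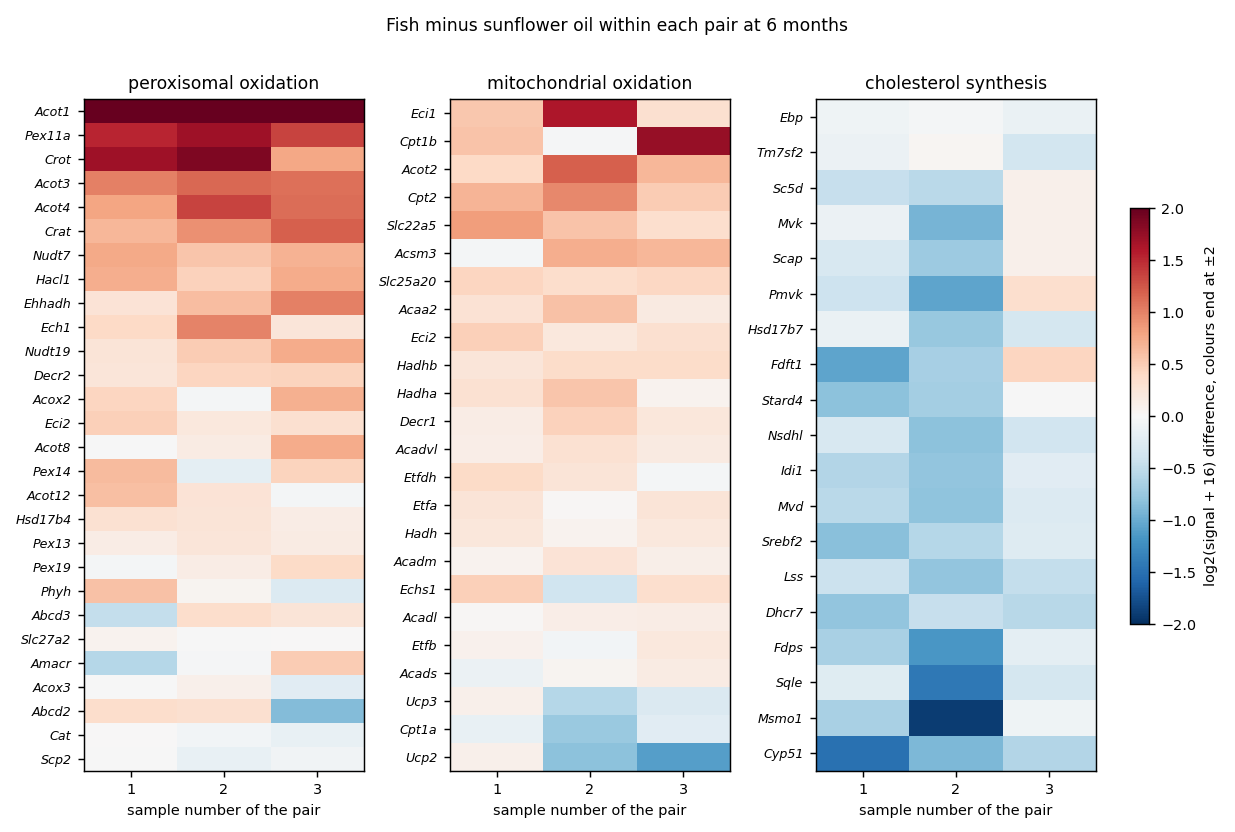
Fish minus sunflower oil within each pair at 6 months (colour, log2(signal + 16), colours end at ±2) for every measured gene of 3 groups, ordered by mean difference, with the sample number of the pair on the horizontal axis. Most oxidation genes are red in all 3 columns and most cholesterol synthesis genes blue, with the strongest blue of Msmo1 and Sqle in pair 2.

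PPAR-alpha targets outside these pathways had a median of 0.06 over 27 genes, of which 14 had a positive and 13 a negative difference. In all 3 pairs, 9 were higher (33.3%, against 14.2% of all genes) and 6 lower (22.2%, against 16.1%). At an unadjusted p under 0.05, 5 were higher (18.5%, against 2.99%) and 1 lower (3.7%, against 3.83%), and 0 passed the test. Mgll, the monoacylglycerol lipase, had signals of 192.7, 153.8 and 159.4 in sunflower oil livers 1 to 3 and 256.2, 245.4 and 286.5 in fish oil livers 1 to 3 without overlap, and a difference of 0.60 ± 0.15 (adjusted p = 0.667). Aqp3, a channel for glycerol and water, had signals of 0.6, 1.9 and 0.7 in sunflower oil livers 1 to 3 and 34.4, 8.8 and 153.5 in fish oil livers 1 to 3. It was clear of the dim range in fish oil livers 1 and 3 and at or under 1.9 in all sunflower oil livers, and its difference of 1.81 ± 0.46 is set by the added 16 and is no fold of the transcript.

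The fatty acid omega-hydroxylases Cyp4a1 and Cyp4a3 differed by 0.53 ± 0.19 and 0.90 ± 0.26, and by 0.26 and 0.48 without the number 2 pair. The pantetheinase Vnn1 differed by 0.46 ± 0.19, and by 0.24 without that pair. Other targets had an unadjusted p above 0.05: 0.06 ± 0.31 for Pdk4, which restrains pyruvate oxidation, 0.59 ± 0.32 for Angptl4, an inhibitor of lipoprotein lipase, -0.24 ± 0.14 for the hormone Fgf21 and -0.19 ± 0.42 for the fatty acid transporter Cd36. The transcript of PPAR-alpha itself was dim, with signals of 50.3, 52.1 and 51.8 in sunflower oil livers 1 to 3 and 38.9, 36.5 and 16.3 in fish oil livers 1 to 3, and its difference was -0.57 ± 0.37 (adjusted p = 0.801). Plin4, a lipid droplet coat protein, differed by -0.64 ± 0.26.

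Cholesterol synthesis had the most uniform sign of the 24 pathway lists. All 19 measured genes had a negative difference, against 7489 of 14217 genes in general, and 13 were lower in all 3 pairs (68.4%, against 16.1%). An unadjusted p under 0.05 was reached by 10 (52.6%, against 3.83%), and 0 passed the adjusted test. The median was -0.51, with -0.45, -0.79 and -0.22 in pairs 1 to 3 and -0.35 without the number 2 pair. The median was thus largest in size in pair 2, but some genes, such as Cyp51 and Dhcr7, differed most in pair 1. Whether the larger median goes with the lipogenic transcripts of the number 2 livers was not tested.

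Cyp51, the lanosterol demethylase, had signals of 541.5, 1586.5 and 378.7 in sunflower oil livers 1 to 3 and 181.6, 842.8 and 245.7 in fish oil livers 1 to 3. It was lower in each pair, at -1.50, -0.90 and -0.59, with a mean of -0.996 ± 0.301 (adjusted p = 0.667). Msmo1, the sterol methyl oxidase that acts later, had signals of 200.2, 663.7 and 175.5 in sunflower oil livers 1 to 3 and 121.4, 166.5 and 164.9 in fish oil livers 1 to 3. The groups did not overlap, but sunflower oil liver 2 stood far above the rest, and without the number 2 pair the difference of -0.88 ± 0.30 was -0.37.

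Fdps, which makes farnesyl diphosphate, had signals of 754.2, 3333.6 and 599.8 in sunflower oil livers 1 to 3 and 473.9, 1485.8 and 523.9 in fish oil livers 1 to 3, and its difference of -0.67 ± 0.21 was -0.42 without the number 2 pair. Sqle, the squalene epoxidase, differed by -0.68 ± 0.22, and by -0.30 without that pair, at signals of 16 or less in 5 of the 6 livers. Differences less dependent on the number 2 pair were -0.56 ± 0.15 for the lanosterol synthase Lss, -0.53 ± 0.16 for the isomerase Idi1, -0.54 ± 0.17 for the mevalonate diphosphate decarboxylase Mvd and -0.60 ± 0.26 for the late-acting reductase Dhcr7. Nsdhl, a sterol dehydrogenase, differed by -0.51 ± 0.16 (-0.35 without the number 2 pair), and Stard4, a cytosolic sterol carrier, by -0.51 ± 0.18. Another probe set of Stard4, nearly as bright, gave only -0.24 ± 0.20, and a dimmer one -0.01 ± 0.17.

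Promoter sequences of the groups were read for short motifs in the 250 bases before the start site that RefSeq gives on GRCr8, on both strands. The letters AGGTCA, a half-site to which PPAR-alpha and other nuclear receptors bind, occurred in 8 of 27 peroxisomal (29.6%) and 5 of 20 mitochondrial oxidation promoters (25.0%), beside 11.3% of the 11733 promoters of tested genes. Only Acot4 among the 8 and Eci1 among the 5 had an unadjusted p under 0.05 with a higher level. The PPAR/RXR direct repeat, in which 2 copies of a half-site of this kind are spaced by 1 base, was found in 0 promoters of either group and in 0.324% of tested genes. The letters CCAAT, the site of NF-Y, which is known to act beside SREBP, occurred in 12 of 15 cholesterol synthesis promoters (80.0%), beside 35.1% of tested genes. Of the 12, 6 had an unadjusted p under 0.05 with a lower level, beside 10 of 19 (52.6%) in the whole list. The whole list includes the 12 and also members without a promoter window, so whether CCAAT marks the lower members was not tested. The letters GGGCGG, the Sp1 box, occurred in 13 of the 15 (86.7%), beside 54.2% of tested genes. The sterol element core TCACNCCAC was found in 0 of the 15 and in 0.98% of tested genes. AGGTCA was in 2 of the 15 (13.3%). A match of letters is a description of the sequence and was not tested as a binding site.

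The sequences below are the 250 bases before the start of 6 genes, 5′ to 3′ on the strand of the gene, with AGGTCA and CCAAT, or their reverse complements, in capitals. Acot4 and Eci1 are shown as the oxidation genes with a half-site and a higher level. The half-site of Acot4 lies directly before the start, at -6 to -1, and that of Eci1 at -94 to -89.
Acot4 (chr6:109399604-109399853, plus strand): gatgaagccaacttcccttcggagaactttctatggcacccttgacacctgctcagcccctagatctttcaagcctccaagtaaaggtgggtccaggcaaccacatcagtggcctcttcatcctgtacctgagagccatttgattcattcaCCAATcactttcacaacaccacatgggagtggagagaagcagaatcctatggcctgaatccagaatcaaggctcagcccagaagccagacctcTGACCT
Eci1 (chr10:13961000-13961249, plus strand): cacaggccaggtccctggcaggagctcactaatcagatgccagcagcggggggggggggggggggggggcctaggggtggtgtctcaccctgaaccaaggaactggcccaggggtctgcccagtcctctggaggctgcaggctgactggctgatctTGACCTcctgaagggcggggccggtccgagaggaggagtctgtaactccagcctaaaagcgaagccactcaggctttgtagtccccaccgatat
Fdps, Nsdhl and Msmo1 are shown as cholesterol synthesis genes with a lower level and more than 1 CCAAT box. Nsdhl has 5, between -208 and -61, Msmo1 has 3 and Fdps has 2, and the half-site of Fdps at -96 to -91 lies close to its CCAAT at -85 to -81.
Fdps (chr2:176804817-176805066, minus strand): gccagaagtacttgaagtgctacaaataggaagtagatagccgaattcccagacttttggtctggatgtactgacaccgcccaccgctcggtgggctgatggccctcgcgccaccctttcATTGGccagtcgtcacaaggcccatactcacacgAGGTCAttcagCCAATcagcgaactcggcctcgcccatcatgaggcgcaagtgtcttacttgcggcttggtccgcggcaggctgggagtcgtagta
Nsdhl (chrX:155817110-155817359, plus strand): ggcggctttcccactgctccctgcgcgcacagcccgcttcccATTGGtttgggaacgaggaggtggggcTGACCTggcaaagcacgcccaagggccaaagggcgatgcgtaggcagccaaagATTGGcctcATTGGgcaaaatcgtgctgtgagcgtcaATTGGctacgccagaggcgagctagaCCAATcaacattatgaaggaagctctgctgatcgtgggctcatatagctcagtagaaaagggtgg
Msmo1 (chr16:29746863-29747112, plus strand): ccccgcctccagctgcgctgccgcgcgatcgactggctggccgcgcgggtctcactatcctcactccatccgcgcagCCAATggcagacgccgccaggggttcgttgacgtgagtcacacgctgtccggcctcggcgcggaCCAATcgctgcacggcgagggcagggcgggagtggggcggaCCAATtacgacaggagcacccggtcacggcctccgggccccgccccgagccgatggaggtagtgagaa
Rtn4ip1, the gene that passed the test, has CCAAT on the opposite strand at -93 to -89 and at -52 to -48.
Rtn4ip1 (chr20:48964685-48964934, plus strand): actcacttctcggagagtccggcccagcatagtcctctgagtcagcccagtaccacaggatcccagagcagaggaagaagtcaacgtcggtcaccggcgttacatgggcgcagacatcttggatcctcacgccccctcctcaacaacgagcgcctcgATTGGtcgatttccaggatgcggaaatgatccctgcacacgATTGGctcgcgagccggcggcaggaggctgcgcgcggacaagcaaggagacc
The window of Pex11a held neither motif.

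Genes that lengthen and desaturate polyunsaturated fatty acids included some of the larger negative differences at high signal. Fads1, the delta-5 desaturase, had signals of 3009.6, 3762.4 and 1290.3 in sunflower oil livers 1 to 3 and 683.6, 2085.4 and 727.4 in fish oil livers 1 to 3. It was lower in each pair, at -2.11, -0.85 and -0.81, although fish oil liver 2 lay above sunflower oil liver 3, and the mean was -1.26 ± 0.29 (adjusted p = 0.647). Fads2, the delta-6 desaturase, had signals of 1886.1, 2394.8 and 690.2 in sunflower oil livers 1 to 3 and 657.7, 958.7 and 732.6 in fish oil livers 1 to 3. Pairs 1 and 2 were lower with fish oil and pair 3 was level, at -1.50, -1.31 and 0.08, giving -0.91 ± 0.32 (adjusted p = 0.703).

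The elongases of the same route, Elovl2 and Elovl5, differed by -0.68 ± 0.22 and -0.48 ± 0.15 and were lower in all 3 pairs, and without the number 2 pair they differed by -0.39 and -0.46. Over the whole list of 17 genes, which also holds elongases of saturated chains and acyl-CoA synthetases, the median was -0.10. In that list 6 genes were lower (35.3%) and 2 higher (11.8%) in all 3 pairs, and 0 passed the test.

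Lipogenic genes such as Fasn and Scd differed more between the number 2 livers and the others than between the oils. Of 27 genes, 12 were lower in all 3 pairs (44.4%) and 2 higher, with a median of -0.17 and no call. Fasn differed by -0.65 ± 0.20, Pklr, the liver pyruvate kinase, by -0.41 ± 0.13, and Acly, which makes cytosolic acetyl-CoA, by -0.54 ± 0.24. Another, dimmer probe set of Pklr gave -0.18 ± 0.21 (adjusted p = 0.93 over all probe sets). Acacb, the mitochondrial acetyl-CoA carboxylase, differed by -0.84 ± 0.19 at signals under 73. Values near 0 were seen for Scd (-0.17 ± 0.23), Acaca (-0.20 ± 0.20) and Srebf1 itself (-0.14 ± 0.29).

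Pnpla3, a lipid droplet protein under SREBP-1c, had signals of 6.6, 624.0 and 10.2 in sunflower oil livers 1 to 3 and 0.7, 18.7 and 5.6 in fish oil livers 1 to 3. One sunflower oil liver, number 2, carried nearly all of its signal, so that -1.64 ± 0.87 became -0.36 without that pair. Elovl6 differed by -0.66 ± 0.39 and the malic enzyme Me1 by 0.41 ± 0.34 (0.68 without the number 2 pair). Agpat2, which makes phosphatidic acid, went the other way, at 0.52 ± 0.14.

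In bile acid and sterol handling, 11 of 26 genes were lower in all 3 pairs (42.3%) and 3 higher, with a median of -0.11. Cyp7a1, whose enzyme sets the rate at which bile acids are made from cholesterol, was one of the 3 higher genes, with signals of 116.5, 545.5 and 353.3 in sunflower oil livers 1 to 3 and 247.8, 1239.6 and 727.2 in fish oil livers 1 to 3. Its level varied more between numbers than between oils, yet each pair was higher with fish oil, by 0.99, 1.16 and 1.01 (mean 1.05 ± 0.27, adjusted p = 0.667). The cholesterol efflux pump Abca1 and the HDL receptor Scarb1 differed by -0.42 ± 0.17 and -0.49 ± 0.15. Abcg5, which exports sterols into bile, was level at -0.01 ± 0.23, and the exporter Abcc3 differed by -0.31 ± 0.14 at signals of 11.0 or less.

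Lipoprotein and lipid transport genes were mostly lower with fish oil. Of 25, 11 were lower (44.0%) and 0 higher in all 3 pairs, with a median of -0.14, and -0.08 without the number 2 pair. Apoa4, an apolipoprotein of triglyceride-rich particles, had signals of 4737.5, 4992.5 and 5309.8 in sunflower oil livers 1 to 3 and 3731.3, 2536.9 and 3569.8 in fish oil livers 1 to 3. No fish oil liver reached a sunflower oil liver, and the difference was -0.63 ± 0.16 (adjusted p = 0.662). The phospholipid transfer protein Pltp differed by -0.64 ± 0.19, the triglyceride transfer protein Mttp by -0.30 ± 0.13 and the hepatic lipase Lipc by -0.31 ± 0.14.

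**Figure D4:**
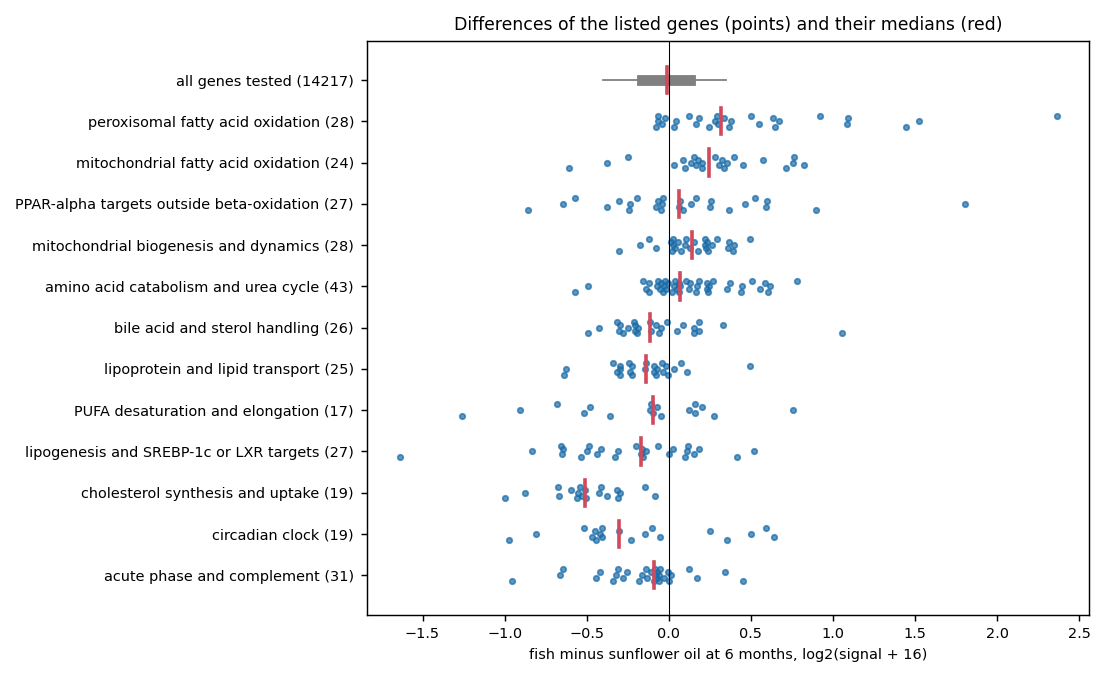
Fish minus sunflower oil at 6 months (horizontal axis, log2(signal + 16)) for each measured gene (points) of 12 groups with the group median (red), the number of genes in brackets, and above them all genes tested (thick bar: middle 50%, thin line: 5th to 95th percentile). The peroxisomal median is 0.32 and the cholesterol synthesis median -0.51, with -0.01 for all genes.

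Other metabolic groups held smaller differences. Genes of mitochondrial biogenesis and dynamics had a median of 0.14, with 10 of 28 higher in all 3 pairs (35.7%) and 1 lower. The prohibitin Phb2 had signals of 1138.7, 1063.3 and 1130.2 in sunflower oil livers 1 to 3 and 1563.1, 1328.6 and 1868.8 in fish oil livers 1 to 3, without overlap, and differed by 0.50 ± 0.14. The mitochondrial transcription factor Tfb2m differed by 0.40 ± 0.13 and the protease subunit Clpp by 0.37 ± 0.14. Respiratory chain genes as a group had a median of 0.07, which had both signs over the pairs, at 0.06, -0.12 and 0.28, and was 0.17 without pair 2.

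In amino acid catabolism, 11 of 43 genes were higher in all 3 pairs (25.6%) and 1 lower, with a median of 0.07. This median lay mostly in pair 1, at 0.32, -0.01 and 0.02 in pairs 1 to 3, and was 0.20 without pair 2. Gcsh, of the glycine cleavage system, had signals of 1526.0, 1750.7 and 1712.5 in sunflower oil livers 1 to 3 and 2104.0, 2360.5 and 2310.0 in fish oil livers 1 to 3, with no overlap and a difference of 0.44 ± 0.13. Gnmt, which methylates glycine, and Agxt, which removes glyoxylate, differed by 0.51 ± 0.16 and 0.55 ± 0.18. Inmt, a methyltransferase for amines, was the one gene of the list lower in all 3 pairs, at -0.57 ± 0.15.

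Glucose metabolism had a median of -0.11, with 9 of 37 genes lower in all 3 pairs. The liver glycogen synthase Gys2 differed by -0.55 ± 0.15, the glucokinase regulator Gckr by 0.42 ± 0.17, and Pck1, of gluconeogenesis, by -0.16 ± 0.13. Among arachidonic acid enzymes, the prostaglandin E synthase Ptges differed by -0.55 ± 0.15 at signals under 27, and the epoxygenase Cyp2j3 by 0.50 ± 0.15. The list of phospholipid and eicosanoid genes as a whole had a median of -0.03.

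Sex-biased liver genes had a median of -0.03. Sult2a6, a sulfotransferase for bile acids and steroids, had signals of 1451.3, 2364.4 and 2036.8 in sunflower oil livers 1 to 3 and 1050.0, 639.2 and 1299.7 in fish oil livers 1 to 3. The groups did not overlap, and the difference of -0.99 ± 0.31 was -0.55 without the number 2 pair. Trim24, a cofactor of nuclear receptors, differed by 0.63 ± 0.15 at dim signals of 31.5 or less on all 6 arrays. Neither passed the test (adjusted p = 0.667 and 0.647).

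Clock genes had a median of -0.31, with 8 of 19 lower in all 3 pairs (42.1%) but 0 lower at an unadjusted p under 0.05. Dbp, an output of the clock, differed by -0.97 ± 0.52, Usp2 by -0.45 ± 0.20 and Bmal1, which peaks in the opposite phase, by 0.64 ± 0.32. Per3, Nr1d1 and Nr1d2 differed by -0.45 ± 0.21, -0.31 ± 0.34 and -0.41 ± 0.20. Without the number 2 pair the values were -0.72 for Usp2, -0.65 for Nr1d1 and -0.63 for Nr1d2. The time of day at which each animal was killed is not given in the labels, and its part in these values was not tested.

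Acute phase and complement genes had a median of -0.09, with 11 of 31 lower in all 3 pairs (35.5%). A2m, the alpha-2-macroglobulin that rises in rat inflammation, had signals of 79.3, 210.1 and 137.2 in sunflower oil livers 1 to 3 and 30.4, 71.7 and 94.8 in fish oil livers 1 to 3. It was lower in each pair, at -1.04, -1.37 and -0.47, with a mean of -0.96 ± 0.23 (adjusted p = 0.647). The complement component C9 differed by -0.34 ± 0.13.

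The remaining groups had medians of 0.05 for antioxidant genes, -0.02 for xenobiotic metabolism, -0.14 for the unfolded protein response, -0.15 for interferon and antigen presentation, -0.01 for cytokines, -0.01 for p53 targets and -0.02 for ribosomal proteins. The cell cycle list had 8 of 33 genes higher and 8 lower in all 3 pairs. Of the oxidative stress genes, Nqo1 differed by -0.64 ± 0.38 (-0.24 without the number 2 pair) and Hmox1 by -0.16 ± 0.22.

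Markers of the cell types in the tissue were read on the same arrays. Hepatocyte markers were present on every array, with summed signals of 79379 to 89700 with fish oil and 85661 to 95118 with sunflower oil. Of the 11 measured, 9 had a negative difference (median -0.12), beside 52.7% of all genes. Macrophage markers summed to 2473 to 3503 with fish oil and 3023 to 3580 with sunflower oil, and 10 of 11 had a negative difference (median -0.29, but -0.04 without the number 2 pair). Endothelial markers summed to 1556 to 2539 and 2156 to 3030, with 9 of 11 negative. Erythroid markers, which carry blood left in the tissue, summed to 5980 to 10942 and 7099 to 12821, with 8 of 8 negative. Some defining markers of rarer cells stayed under 16 on all 6 arrays: 6 of 15 for T, B and NK cells, 4 of 9 for monocytes and granulocytes, 4 of 8 for cholangiocytes, 3 of 9 for adipocytes and 6 of 14 for exocrine pancreas. The ranges of fish and sunflower oil overlapped in all 10 marker lists. Within pairs, however, the erythroid and endothelial sums were lower with fish oil in all 3, and the adipocyte sum, at 1306 to 1852 against 1066 to 1675, was higher in all 3. The adipocyte markers taken singly did not share this rise. Of the 9, 0 were higher in all 3 pairs, and their medians were 0.05, -0.17 and -0.08 in pairs 1 to 3. In bulk tissue, fewer cells of a type and less RNA per cell cannot be told apart, and the part of these markers in the gene differences was not tested.

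The olive oil livers of the same age give the level of each oil against another diet. These comparisons share the fish or the sunflower oil arrays with the main one, so their values are set side by side without a test of likeness. For Pex11a, fish minus olive oil was 1.54 ± 0.16 and sunflower minus olive oil 0.02 ± 0.16. Rtn4ip1 gave -1.66 ± 0.14 and -0.14 ± 0.14, and Fads1 -1.33 ± 0.29 and -0.07 ± 0.29. In these 3 genes the sunflower oil livers lay near the olive oil livers.

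Cyp7a1 gave -0.07 ± 0.27 for fish minus olive oil and -1.13 ± 0.27 for sunflower minus olive oil, and Hacl1 -0.04 ± 0.17 and -0.69 ± 0.17. For these 2 genes the sunflower oil livers were the ones away from olive oil. Crot gave 2.51 ± 0.31 and 1.06 ± 0.31, so that both oils lay above olive oil. The peroxisomal list had medians of 0.29 and -0.04, and the cholesterol synthesis list of -0.48 and -0.06. Lipogenic genes had medians of -0.75 and -0.30.

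The same contrast was also taken at 24 months, in other animals. A test of the difference between the ages called no gene (0.0%), while 1215 genes had an unadjusted p under 0.05 (8.55%). Of all genes, 600 had one sign in all 3 pairs at 6 months and the other sign in all 3 at 24 months (4.22%), and 10 of them are named here. Fads1 was at -1.26 at 6 months and -1.28 ± 0.41 at 24 months. Apoa4 was at -0.63 and -0.71 ± 0.17, and Hdc at 2.48 and 3.18 ± 0.43, the latter past the test (adjusted p = 0.0402). Pex11a was at 1.52 and 0.96 ± 0.44, and Rtn4ip1 at -1.52 and -0.18 ± 0.39, with unadjusted p-values for the difference between ages of 0.386 and 0.0294 in the limma fit.

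Medians of the lists at 24 months were 0.04 for peroxisomal oxidation, -0.02 for mitochondrial oxidation and -0.07 for cholesterol synthesis, beside 0.32, 0.24 and -0.51 at 6 months. The peroxisomal median at 24 months came from pairs of opposite sign, at 0.41, 0.22 and -0.41 in old pairs 1 to 3, and 16 of the 28 genes were higher with fish oil in old pairs 1 and 2 but lower in old pair 3. Pex11a was at 1.69, 2.04 and -0.85 in these pairs, Crot at 1.17, 2.26 and -0.44 and Ehhadh at 1.16, 1.63 and -0.95. Acot1 rose at 24 months, by 3.89 ± 0.32 (adjusted p = 0.000452 in the limma fit), 1 of 8 genes called higher at that age (0.0563%) and the only one of the peroxisomal list. Its difference between the ages was -1.53 ± 0.46 (adjusted p = 0.486). Acot3 was at 1.35 ± 0.27. Cyp7a1 was at -1.11 ± 0.56, against 1.05 at 6 months (unadjusted p of the difference in the limma fit = 0.0187, adjusted p = 0.515). A2m was at 1.30 ± 0.29, against -0.96 (adjusted p = 0.382). The other 4 genes with the smallest p for the difference between ages were Dusp2, a MAP kinase phosphatase, the lymphocyte genes Cd7 and Cxcr3, and Kifc3. They were at 1.32 ± 0.19, 0.84 ± 0.15, 0.82 ± 0.13 and 0.46 ± 0.18 at 24 months and at -0.25, -0.40, -0.19 and -0.92 at 6 months.

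**Figure D5:**
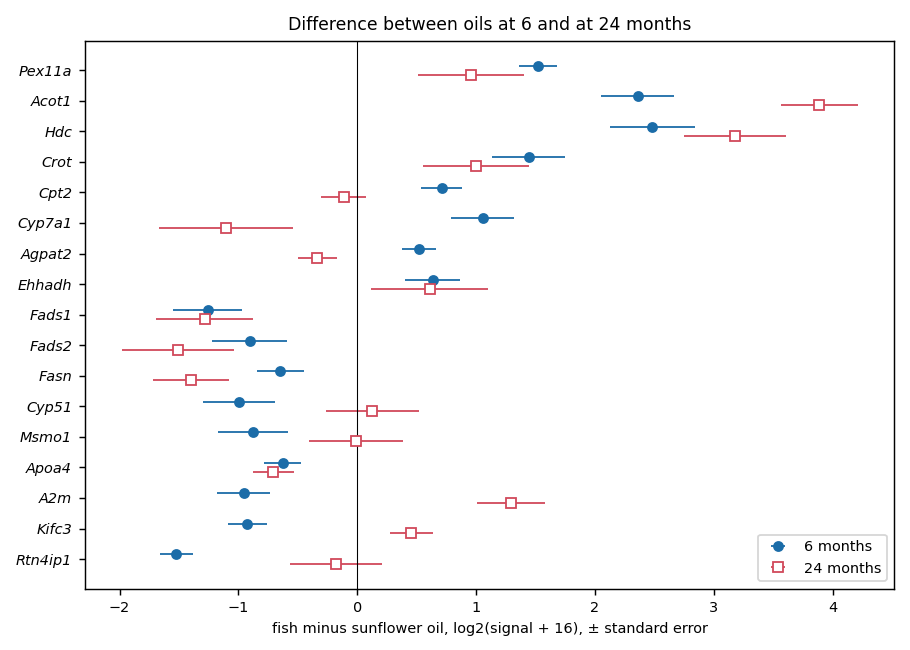
Fish minus sunflower oil (horizontal axis, log2(signal + 16)) with its standard error at 6 months (filled circles) and 24 months (open squares) for 17 genes named in the text. Fads1 and Apoa4 lie at nearly the same place at both ages, while Cyp7a1 and A2m lie on opposite sides of 0.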

How the data were processed

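Liver RNA was measured on 1 Affymetrix array per rat. The deposited values were linear intensities, scaled by the authors to a common 2% trimmed mean of 99.17 to 99.39, as the values show. RMA and Partek are listed, with no version, per the submitters' processing notes, whereas RMA gives log2 values, and the steps that made these intensities are not given in the sources used here. Of 31042 probe sets, 20826 had 1 gene symbol in the platform annotation, 436 several and 9780 none, and only the first were used, the brightest standing for its gene. Names were matched to RefSeq for 20758.

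The value log2(signal + 16) was fitted with limma 3.58.1 in R 4.3.3 over the 9 young arrays, with the oil and the sample number as a block (4 residual and 4.38 prior degrees of freedom). Benjamini-Hochberg adjustment of the p-values ran over 14217 genes. Deviations from the group means correlated between arrays of the same number at 0.153 to 0.458 in all 9 pairs of arrays, and at -0.335 to 0.113 between numbers, so the numbers were used as pairs. The ages were compared in a fit of 18 arrays with the number as a block within age. The code was tested on simulated data. No array duplicated another, and none was left out.

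The comparison, the gene lists (24 of pathways, 10 of cell type markers) and 35 core genes, 29 of them measured, were chosen with earlier results of these data known. Named were up to 12 genes past the threshold in each direction with the same sign in all 3 pairs, filled up to 6 by the smallest p where fewer passed and leaving out predicted symbols. The core genes, the 4 members with the smallest p in some of the lists and the 5 smallest p for the difference between ages were also named. None of these list members passed the threshold. Other list members were chosen as examples after their values were seen. Alternatives were other pairings and array sets, pseudocounts of 4 and 64, a filter at a mean signal of 32, other summaries of probe sets, quantile normalization, median centring, another variance prior, and leaving out each array or number. Python 3.11.15, pandas 2.3.3 and matplotlib 3.10.9 were used for tables and figures.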

Additional observations from a re-analysis of the deposited data

Results flagged for a closer look

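Of the genes named, 10 had a difference of one sign in all 3 pairs at 6 months and of the other sign in all 3 pairs at 24 months. They were 10.5% of the 95 named genes with one sign at 6 months, beside 600 of 4304 (13.9%) among all genes tested. In none of them did the difference between the ages pass the adjusted limma test, and 0 genes of all tested did. A2m, the acute phase alpha-2-macroglobulin, was at -1.04, -1.37 and -0.47 in the young pairs and 0.76, 0.94 and 2.19 in the old pairs, a difference of -2.25 ± 0.40 between ages (adjusted p = 0.382). The lymphocyte genes Cd7 and Cxcr3 gave -1.24 ± 0.21 and -1.01 ± 0.18 (adjusted p = 0.382 for both), at dim young signals of 33.1 or less. The complement component C9 gave -0.76 ± 0.24 and the cholesterol synthesis enzyme Dhcr7 -0.99 ± 0.41.

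The other 5 were higher with fish oil at 6 months and lower at 24 months. The differences between ages were 0.99 ± 0.24 for the coenzyme A diphosphatase Nudt19, 0.99 ± 0.24 for the glycine methyltransferase Gnmt and 0.71 ± 0.25 for Gcsh of the glycine cleavage system. They were 0.85 ± 0.23 for the acyltransferase Agpat2 and 0.49 ± 0.16 for the mitochondrial transcription factor Tfb2m. Cd7, Cxcr3 and A2m had been named for their p in this comparison.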

How the results depend on the processing

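The fit with the sample number as a replicate block called 0 genes higher and 1 lower. Without the replicate block, with a random replicate block, and in both fits of 18 arrays or the one of 6 arrays, 0 were called lower. The count of lower genes was also 0 at pseudocounts of 4 and 64, with the mean over probe sets, over all probe sets, after another quantile normalization, and at 0 to 0 when any young fish or sunflower array or any number was left out. The count of higher genes was 4 with a trend and robust variance prior (Pex11a, Acot1, Acot3 and Hdc) and 1 with the filter at 32 (Pex11a). For the difference between ages it was 0 to 6 with 1 array left out, the 6 without fish oil liver 1 at 24 months. The cause was not tested. Rtn4ip1 kept its sign under all 22 alternatives (leave-out range -1.60 to -1.45), with adjusted p-values of 0.0108 to 0.999.

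Of 107 named genes, 97 kept their sign under every alternative run for them. The sign turned with arrays left out for Srebf1 (-0.42 to 0.0857), Scd (-0.48 to 0.02), Pdk4 (-0.26 to 0.32), Cd36 (-0.66 to 0.0555), Abcg5 (-0.17 to 0.24), Hmox1 (-0.38 to 0.0147), Nr1d1 (-0.65 to 0.0555) and Ugt2b (-0.30 to 3.93), and with another quantile normalization for Abcg5 (0.0294), Cat (0.0006) and Scp2 (0.0097). Medians over all 22 alternatives ran from 0.22 to 0.42 for peroxisomal oxidation, 0.20 to 0.30 for mitochondrial oxidation and -0.70 to -0.32 for cholesterol synthesis. Signals under 16 limit what can be read of dim genes.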

Other observations

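Some of the largest differences belonged to genes outside the lists and were chosen here after their values were seen. Ubd, a ubiquitin-like protein induced by interferon and cytokines, had signals of 3.6, 36.5 and 29.0 in sunflower oil livers 1 to 3 and 156.4, 833.1 and 274.6 in fish oil livers 1 to 3. The groups did not overlap, and the difference of 3.28 ± 1.08 (adjusted p = 0.667) was positive in every pair, at 3.14, 4.02 and 2.69. At 24 months the difference was 5.51 ± 1.38. Olive oil livers 1 to 3 at 6 months had signals of 565.6, 19.7 and 14.2, so that Ubd also ranged widely within that oil. The interferon and antigen presentation list had a median of -0.15 at 6 months and 0.98 at 24 months.

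C8b, a chain of the complement membrane attack complex, had signals of 3471.8, 3989.5 and 3552.2 in sunflower oil livers 1 to 3 and 960.1, 2014.7 and 1786.6 in fish oil livers 1 to 3, with no overlap and a difference of -1.27 ± 0.40 (adjusted p = 0.667). Bco1, which cleaves beta-carotene to retinal, had 165.2, 200.0 and 138.2 in sunflower oil livers 1 to 3 and 126.7, 45.4 and 25.0 in fish oil livers 1 to 3, again without overlap (difference -1.36 ± 0.53, adjusted p = 0.721). Tmcc2, a membrane protein with coiled coils, had 630.5, 169.4 and 65.6 in sunflower oil livers 1 to 3 and 52.1, 47.9 and 54.1 in fish oil livers 1 to 3, and its difference of -1.67 ± 0.67 lay mostly in pair 1.

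In 1 gene the signal was nearly present or absent by animal and not by oil. This glucuronosyltransferase, labelled Ugt2b, had signals of 4939.3, 12.5 and 17.7 in sunflower oil livers 1 to 3 and 5678.1, 5758.7 and 3.9 in fish oil livers 1 to 3. It was thus high in 3 of the 6 livers and under 18 in the other 3, with both kinds in each oil. The class I histocompatibility gene RT1-T24-4 had signals of 8.2, 130.7 and 17.8 in sunflower oil livers 1 to 3 and 449.6, 731.7 and 55.9 in fish oil livers 1 to 3, which also ranged widely within each oil. It was higher with fish oil in each pair, at 4.27, 2.35 and 1.09, with a difference of 2.57 ± 1.16 (adjusted p = 0.727). Both belong to families of close copies, so the array may not tell their members apart. Whether these animals differ in those genes was not tested.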
